A study of Rattus norvegicus with 9 samples.

Results

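The genes described here are 10 genes of excitation-contraction coupling and calcium handling in striated muscle: Cacna1s, Stac3, Ryr1, Trdn, Jph1, Casq1, Casq2, Atp2a1, Atp2a2 and Pvalb. They were chosen by name from the 31125 gene rows of the count table, each matched exactly, and all 10 were among the 15936 genes that passed the filter on low counts. Bulk RNA was sequenced from femurs of male rats in 3 groups of 3 libraries, all at day 7. The GMTT group had a distal femoral growth plate injury and was treated with GMTT, a hydrogel whose components, by the series title, are GelMA, a gelatin made cross-linkable with methacrylate, tea polyphenols, and TPGS, a water-soluble form of vitamin E. The GPI group had the same injury without hydrogel, and the Sham group had sham surgery. A hydrogel-treated femur without injury was not analysed here, and the labels give no strain and no age. They place 3 rats in each group but do not say whether tissue was pooled, or how much of the adjoining muscle stayed on the bone. The p-values therefore measure the spread between these libraries.

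In a skeletal muscle fibre an action potential spreads from the surface membrane into the transverse tubules. There a voltage sensor in the tubule membrane opens a calcium release channel in the facing sarcoplasmic reticulum, at a junction called the triad, and the calcium that leaves the store switches on the contractile filaments. Relaxation follows when calcium pumps return the ion to the store, where it is held by low-affinity binding proteins, and in fast fibres a soluble buffer takes up calcium in the cytosol as well. Several of these proteins exist as a form typical of fast fibres and a form typical of slow fibres and heart.

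For those of the 10 genes that share a motif, the sequence before the start site is shown. The promoter table of RefSeq (assembly GRCr8) held 9 of the 10 genes, all but Jph1, and the 250 bases before the start were searched on both strands. The E-box CAGCTG, which reads the same on both strands and is a binding sequence of myogenic basic helix-loop-helix factors, was found in 4 of the 9 (44.4%), against 12.0% of 33469 promoters of the same length. A window of 60 bases for each gene is printed 5′ to 3′ on each gene's own strand, with every CAGCTG in it in capitals. The windows are chr13:50045579-50045638 on the plus strand for Cacna1s, chr1:190475419-190475478 on the minus strand for Atp2a1, chr13:87212900-87212959 on the minus strand for Casq1 and chr7:65228415-65228474 on the plus strand for Stac3.
Cacna1s: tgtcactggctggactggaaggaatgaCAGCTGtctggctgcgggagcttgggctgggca
Atp2a1: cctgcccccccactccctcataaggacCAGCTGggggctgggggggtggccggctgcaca
Casq1: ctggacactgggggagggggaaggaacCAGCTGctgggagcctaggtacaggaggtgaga
Stac3: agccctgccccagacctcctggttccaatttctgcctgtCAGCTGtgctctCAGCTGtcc
Cacna1s held 2 matches, which began 197 and 62 bases before the start, of which the nearer is shown. Atp2a1 held a match at 41 bases, Casq1 at 222 bases, and Stac3 held 2 matches, at 21 and 9 bases. The MCAT motif CATTCC was in 11.1% of the 9 genes (Cacna1s) against 12.1% of promoters, TATAAA in 11.1% (again Cacna1s) against 12.9%, and the MEF2 core CTANNNNTAG in none of the 9 against 3.41%. A match is a run of letters in a window and not evidence of binding.

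Libraries held 15927429 to 19715997 counts, and replicates lay close together, with a median biological coefficient of variation of 5.09%. The 10 genes took 0.606% to 0.641% of all counts in the GMTT libraries, 2.56% to 2.71% in the GPI libraries and 0.0776% to 0.0800% in the Sham libraries. Other muscle transcripts moved with them: 15 contractile genes such as Ttn, Neb and Acta1 took 1.79% to 1.92% of counts in GMTT, 9.62% to 9.94% in GPI and 0.200% to 0.211% in Sham, and all 15 were called higher in GPI than in Sham, lower in GMTT than in GPI and higher in GMTT than in Sham. The 6 fast-fibre markers had 0.909% to 0.953% in GMTT, 4.29% to 4.41% in GPI and 0.0930% to 0.0962% in Sham, and the 8 slow-fibre markers had 0.269% to 0.280%, 1.58% to 1.69% and 0.0386% to 0.0406% in GMTT, GPI and Sham, and every gene of both lists was called in the same directions as the contractile genes. The 6 heart markers had 0.00348% to 0.00553% in GMTT, 0.0183% to 0.0221% in GPI and 0.000720% to 0.00128% in Sham, of which Nppa and Nppb were at 0 in every library and Myl7 summed to 1 count in GMTT, 3 in GPI and 0 in Sham. Smooth muscle markers, 5 genes, took 0.0235% to 0.0257% in GMTT, 0.0338% to 0.0355% in GPI and 0.0125% to 0.0134% in Sham. All 5 were called higher in GPI than in Sham and lower in GMTT than in GPI, and 4 of them higher in GMTT than in Sham. Marrow transcripts were also unequal, since 9 erythroid genes took 4.14% to 4.55% of counts in GMTT, 0.103% to 0.113% in GPI and 7.75% to 8.69% in Sham, and 8 neutrophil genes took 1.02% to 1.07%, 0.000474% to 0.000568% and 0.870% to 0.939%. The 7 bone genes, among them Bglap, Col1a1 and Dmp1, took 0.904% to 0.990% in GMTT, 0.326% to 0.344% in GPI and 0.670% to 0.723% in Sham, and 7 cartilage genes took at most 0.00603% in any library, with none of them at 0 in any group. In bulk tissue more muscle fibres and more RNA per fibre cannot be told apart, and the part of the tissue's makeup in the changes below was not tested.

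All 10 genes were higher in GPI femurs than in Sham femurs, by 25.0-fold (Pvalb) to 178-fold (Ryr1). All 10 were lower in GMTT femurs than in GPI femurs, by 2.13-fold (Pvalb) to 17.3-fold (Ryr1), and all 10 were higher in GMTT femurs than in Sham femurs, by 2.88-fold (Atp2a2) to 11.8-fold (Pvalb). The levels of the 3 groups did not overlap for any of the 10 genes, with every GMTT library between the GPI and the Sham libraries. The share of all genes that separate in this way is not given here. Of all genes tested, 88.2%, 85.9% and 57.8% were called in these 3 comparisons, so separation alone does not mark out the 10 genes. These are levels in CPM scaled by the trimmed mean of M values (TMM CPM), a scaling between libraries, and a gene was called at an adjusted p below 0.05 over all genes tested.

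**Figure D1:**
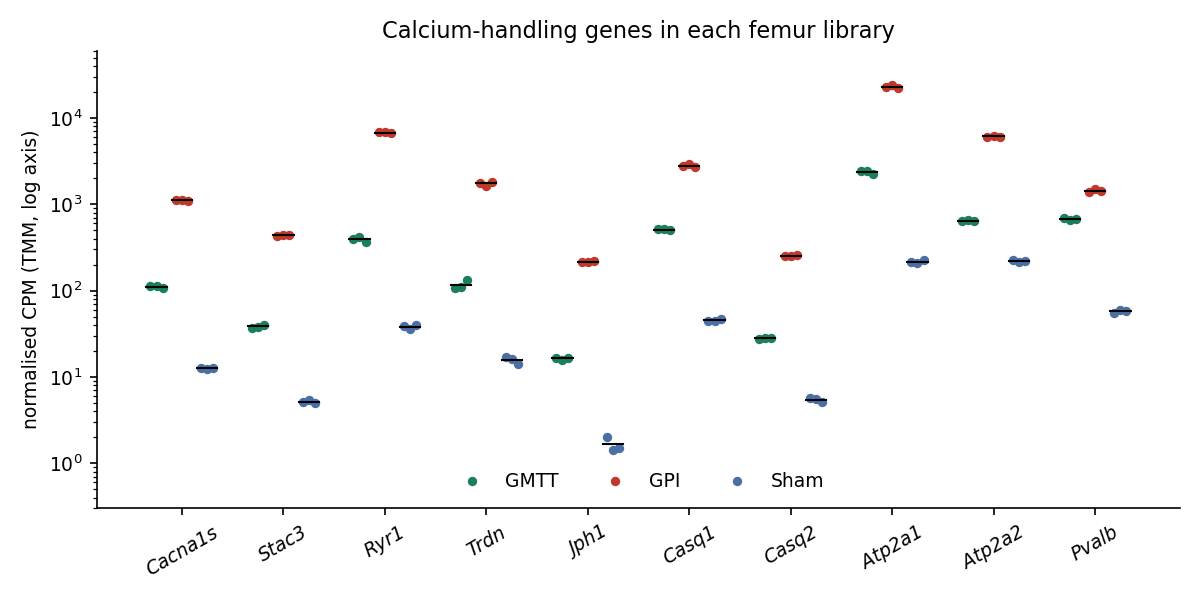
Level of each of the 10 genes in TMM CPM on a log axis in every library, with GMTT, GPI and Sham side by side for each gene; points are libraries (3 per group) and bars are group means. For each gene the 3 GPI libraries lie highest, the 3 Sham libraries lowest and the 3 GMTT libraries between them.

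Cacna1s encodes the pore and voltage sensor of the skeletal muscle dihydropyridine receptor, the tubule calcium channel that triggers release (ENSRNOG00000046231, chr13:47493949-47564318, plus strand, build mRatBN7.2 as in the deposited table). It had 114.2, 113.9 and 106.1 TMM CPM in the GMTT libraries, against 1116, 1122 and 1079 TMM CPM in the GPI libraries and 12.62, 12.47 and 12.64 TMM CPM in the Sham libraries. All GPI values were far above the others and the 3 Sham values nearly coincided. The log2 fold change was 6.46 ± 0.06 (SE) for GPI against Sham, −3.31 ± 0.05 for GMTT against GPI and 3.15 ± 0.06 for GMTT against Sham. Stac3, an adaptor that carries this channel to the triad and is needed for its coupling to release (ENSRNOG00000008050, chr7:63343186-63350589, plus strand), showed the same order of the groups. It had 36.91, 37.97 and 40.42 TMM CPM in GMTT, 425.8, 444.3 and 436.2 TMM CPM in GPI and 5.089, 5.37 and 5.012 TMM CPM in Sham. Its log2 fold changes were 6.40 ± 0.07 for GPI against Sham, −3.50 ± 0.05 for GMTT against GPI and 2.90 ± 0.07 for GMTT against Sham.

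Ryr1, the calcium release channel of the skeletal sarcoplasmic reticulum (ENSRNOG00000020557, chr1:84292578-84423812, minus strand), had the largest fold change of the 10 in both comparisons that involve GPI. It had 394.5, 413.4 and 367.3 TMM CPM in the GMTT libraries, against 6854, 6794 and 6664 TMM CPM in the GPI libraries and 39.19, 35.51 and 39.77 TMM CPM in the Sham libraries. The log2 fold change was 7.47 ± 0.06 for GPI against Sham (adjusted p = 2.02e-39, edgeR's quasi-likelihood test), −4.11 ± 0.05 for GMTT against GPI (adjusted p = 1.48e-34) and 3.36 ± 0.05 for GMTT against Sham (adjusted p = 8.88e-31). Trdn encodes triadin, which anchors the store protein calsequestrin at the release channel (ENSRNOG00000012609, chr1:23955651-24410595, minus strand). Its 3 GMTT libraries were the least alike of those groups, at 105.8, 110.6 and 133.6 TMM CPM, against 1785, 1646 and 1795 TMM CPM in GPI and 16.83, 16.24 and 13.93 TMM CPM in Sham. The log2 fold change of Trdn was 6.80 for GPI against Sham, −3.90 ± 0.08 for GMTT against GPI and 2.90 ± 0.09 for GMTT against Sham. It had the largest adjusted p of the 10 genes in each comparison, at 2.93e-20 for GPI against Sham, 7.34e-18 for GMTT against GPI and 3.06e-14 for GMTT against Sham by edgeR's quasi-likelihood test. Jph1 encodes junctophilin 1, which holds the tubule and the store membrane together (ENSRNOG00000006110, chr5:2030281-2125284, plus strand), and per length was the least abundant of the 10 in every group. It had 16.77, 15.82 and 16.41 TMM CPM in GMTT and 214.5, 215.5 and 218.6 TMM CPM in GPI, but only 2.006, 1.429 and 1.517 TMM CPM in Sham, from 41, 33 and 33 counts. Its log2 fold changes were 7.04 for GPI against Sham, −3.73 ± 0.06 for GMTT against GPI and 3.31 ± 0.11 for GMTT against Sham, and those against Sham rest on these few counts.

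The calsequestrins store calcium inside the reticulum, Casq1 as the main form of fast fibres and Casq2 as the form of heart and slow fibres. Casq1 (ENSRNOG00000006930, chr13:84670649-84680339, minus strand) had 510.2, 514.4 and 500.1 TMM CPM in GMTT, 2784, 2891 and 2705 TMM CPM in GPI and 44.62, 44.09 and 47.4 TMM CPM in Sham. Its log2 fold changes were 5.94 ± 0.05 for GPI against Sham, −2.46 ± 0.04 for GMTT against GPI and 3.49 ± 0.05 for GMTT against Sham. Casq2 (ENSRNOG00000016243, chr2:189525960-189582267, plus strand) had 27.74, 28.21 and 28.48 TMM CPM in GMTT, 251.3, 248.2 and 255.1 TMM CPM in GPI and 5.676, 5.5 and 5.058 TMM CPM in Sham. Each group of Casq2 values was tight, and the log2 fold changes were 5.54 ± 0.07 for GPI against Sham, −3.16 ± 0.05 for GMTT against GPI and 2.38 ± 0.08 for GMTT against Sham.

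Atp2a1 encodes SERCA1, the calcium pump of fast fibres, and Atp2a2 encodes SERCA2, whose splice forms serve slow fibres, heart and, as a housekeeping pump, most other cells. Atp2a1 (ENSRNOG00000047124, chr1:181026608-181044838, minus strand) was per length the most abundant of the 10 in every group. It had 2409, 2402 and 2220 TMM CPM in GMTT, 23080, 23900 and 22080 TMM CPM in GPI and 212.3, 206.6 and 223.3 TMM CPM in Sham. Its log2 fold changes were 6.75 ± 0.06 for GPI against Sham, −3.30 ± 0.05 for GMTT against GPI and 3.45 ± 0.05 for GMTT against Sham. The gene overlaps Rabep2 on the opposite strand, which had 800 counts in GMTT, 199 in GPI and 837 in Sham, and whether reads were counted by strand is not given in the sources used here. Atp2a2 (ENSRNOG00000001285, chr12:34072683-34122101, plus strand) had 631.5, 648.3 and 631.2 TMM CPM in GMTT, 6064, 6225 and 5994 TMM CPM in GPI and 227.8, 216.2 and 218.7 TMM CPM in Sham. The GMTT level was nearer to Sham than for any other of the 10 genes. Its log2 fold change was 4.79 ± 0.05 for GPI against Sham and −3.26 ± 0.04 for GMTT against GPI, but 1.53 ± 0.04 for GMTT against Sham, the smallest of the 10 in that comparison.

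Pvalb encodes parvalbumin, the soluble calcium buffer of fast fibres (ENSRNOG00000006471, chr7:109772593-109784561, minus strand). It had 688.2, 654.5 and 682.6 TMM CPM in the GMTT libraries, against 1401, 1483 and 1428 TMM CPM in the GPI libraries and 55.29, 59.12 and 57.7 TMM CPM in the Sham libraries. GMTT libraries thus stood 2.13-fold below GPI libraries, where the other 9 genes were at least 5.50-fold lower. The log2 fold change was 4.65 ± 0.05 for GPI against Sham, the smallest of the 10, and 3.56 ± 0.05 for GMTT against Sham (adjusted p = 3.39e-32, edgeR's quasi-likelihood test), the largest of the 10. The log2 fold change for GMTT against GPI was −1.09 ± 0.04 and depended on how libraries were scaled. The raw counts of Pvalb were 16126, 14894 and 15556 in GMTT and 16550, 17654 and 14826 in GPI, and with library sizes as the only scaling the log2 fold change was 0.01 ± 0.04 (adjusted p = 0.776, edgeR's quasi-likelihood test), where the median of all genes was 1.22.

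The 10 calls stand before a background in which most genes were called. In GPI against Sham 88.2% of the 15936 genes tested were called and 40.1% were called higher, beside 10 of 10 of these genes. Their median log2 fold change was 6.43, against −0.19 for all genes. In GMTT against GPI 85.9% of all genes were called and 40.2% were called lower, beside 10 of 10 of these genes, with a median of −3.30 against 0.12. In GMTT against Sham 57.8% of all genes were called and 29.5% were called higher, beside 10 of 10, with a median of 3.23 against 0.00. The 3 comparisons share libraries and are not independent of each other. TMM factors were 1.28 to 1.30 in GMTT, 0.600 to 0.604 in GPI and 1.28 to 1.29 in Sham. With library sizes alone the median of all genes was −1.28 for GPI against Sham, a shift of −1.09, and 1.22 for GMTT against GPI, a shift of 1.10. In that setting 23.9% of the genes called in GPI against Sham were higher, against 45.5% with TMM, and 79.2% of those called in GMTT against GPI were higher, against 53.2% with TMM. All 10 genes were still called higher in GPI than in Sham, and 9 of 10 were still called lower in GMTT than in GPI, the exception being Pvalb.

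Levels of different genes were compared in the deposited FPKM, which divides by gene length. In GPI femurs the order was Atp2a1 at 5989 ± 208 FPKM (SD, n = 3 here and below), Casq1 at 1507 ± 43.3, Pvalb at 1131 ± 31.4, Atp2a2 at 1054 ± 16.1, Ryr1 at 437.5 ± 4.35, Trdn at 387 ± 20.0, Stac3 at 281 ± 6.01, Cacna1s at 169.5 ± 2.68, Casq2 at 96.7 ± 1.82 and Jph1 at 87.6 ± 1.32, and no neighbours overlapped. In GMTT femurs Atp2a1 again led at 610.0 ± 29.6 FPKM, but Pvalb came next at 531 ± 14.9, ahead of Casq1 at 274 ± 4.60 and Atp2a2 at 110.2 ± 1.69. Trdn at 25.9 ± 3.21, Ryr1 at 25.3 ± 1.54 and Stac3 at 24.8 ± 1.07 FPKM overlapped in GMTT, and Cacna1s at 17.1 ± 0.755, Casq2 at 10.8 ± 0.105 and Jph1 at 6.62 ± 0.208 followed without overlap. In Sham femurs the upper levels lay closer together, with Atp2a1 at 54.5 ± 1.97 FPKM, Pvalb at 44.2 ± 1.63, Atp2a2 at 37.4 ± 0.952 and Casq1 at 24.0 ± 0.869. Trdn at 3.41 ± 0.339 FPKM overlapped Stac3 at 3.26 ± 0.133 in Sham, and Ryr1 at 2.41 ± 0.136, Casq2 at 2.04 ± 0.123, Cacna1s at 1.89 ± 0.00603 and Jph1 at 0.655 ± 0.122 FPKM were lower. Pvalb was therefore above Casq1 in GMTT and Sham and below it in GPI, and Atp2a2 was above Casq1 only in Sham.

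To set the 10 genes against other muscle transcripts of the same library, the fit was repeated with libraries scaled to the 15 contractile genes. Those were listed as fast skeletal contractile, Z-disc or M-band genes, and the slow-fibre markers were not among them. On this contractile scale a log2 fold change is a difference relative to those genes, and the values of all other transcripts shift with the scale. The median of all genes was −6.60 when GPI was set against Sham, 3.51 when GMTT was set against GPI and −3.02 when GMTT was set against Sham. The contractile genes themselves spread from −0.86 (Actn3) to 1.56 (Ttn) for GPI against Sham, so a gene inside that range did not stand apart from them.

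Relative to the contractile genes, 4 of the 10 were higher in GPI than in Sham (Ryr1, Jph1, Trdn and Atp2a1), 4 were lower (Pvalb, Atp2a2, Casq2 and Casq1), and Cacna1s and Stac3 were not called. Of the 15 contractile genes themselves, 4 were called higher, 5 lower and 6 not called, a similar split. Over all genes 0.791% were called higher and 97.3% lower, shares that shift with the scale. Ryr1 was at 437.3, 444.9 and 403.7 contractile-scaled CPM in GMTT, against 712.9, 682.4 and 704.5 in GPI and 353, 325.5 and 332.7 in Sham. Its 3 GPI values stood above all others, with a log2 fold change of 1.05 ± 0.06 for GPI against Sham and an adjusted p of 2.64e-18 by edgeR's quasi-likelihood test. Pvalb went the other way, at 762.7, 704.3 and 750.3 contractile-scaled CPM in GMTT, 145.7, 149.0 and 151.0 in GPI and 498, 541.9 and 482.7 in Sham. Its GPI values were the lowest and its GMTT values the highest, with a log2 fold change of −1.77 ± 0.06 for GPI against Sham (adjusted p = 2.5e-25, edgeR's quasi-likelihood test). Atp2a2 separated Sham from both injured groups, with 699.9, 697.6 and 693.8 contractile-scaled CPM in GMTT, 630.6, 625.2 and 633.7 in GPI and 2052, 1981 and 1829 in Sham. Its log2 fold change was −1.63 ± 0.06 for GPI against Sham and −1.49 ± 0.06 for GMTT against Sham (adjusted p = 1.71e-25 and 4.72e-24, edgeR's quasi-likelihood test). Atp2a2 is also made outside muscle fibres as a housekeeping pump, and how much of its Sham level came from other cells was not tested. Casq2 was likewise highest in Sham, with −0.88 ± 0.10 for GPI against Sham, and Casq1 had −0.47 ± 0.06 in the same comparison. Of the 8 slow-fibre markers, 3 were called higher and 4 lower in that comparison, with values from −0.97 to 0.92.

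The voltage sensor and its adaptor were not called in any of the 3 comparisons on the contractile scale. Cacna1s was at 126.5, 122.6 and 116.6 contractile-scaled CPM in GMTT, 116.1, 112.7 and 114.1 in GPI and 113.7, 114.3 and 105.8 in Sham. Its log2 fold changes were 0.04 ± 0.07 for GPI against Sham (adjusted p = 0.59), 0.09 ± 0.06 for GMTT against GPI (adjusted p = 0.121) and 0.13 ± 0.07 for GMTT against Sham (adjusted p = 0.0785), by edgeR's quasi-likelihood test. Stac3 was at 40.91, 40.85 and 44.42 contractile-scaled CPM in GMTT, 44.29, 44.62 and 46.12 in GPI and 45.84, 49.23 and 41.93 in Sham, with overlap between every pair of groups. Its log2 fold change was −0.02 ± 0.09 for GPI against Sham (adjusted p = 0.835, edgeR's quasi-likelihood test). With summed contractile counts as the scale instead, both were called lower in GPI than in Sham, at −0.22 for Cacna1s and −0.28 ± 0.10 for Stac3, and Atp2a1 and Trdn lost their calls. On that scale Cacna1s was also called higher in GMTT than in GPI, at 0.18 ± 0.06, as it was at 0.24 ± 0.05 when libraries were scaled to 8 muscle metabolic genes. Stac3 and Trdn were called lower in GMTT than in Sham with summed contractile counts, at −0.29 ± 0.10 and −0.28 ± 0.10.

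In GMTT against GPI on the contractile scale, 5 genes were called higher (Pvalb, Casq1, Casq2, Atp2a2 and Atp2a1) and 3 lower (Ryr1, Trdn and Jph1), where 95.1% of all genes were called higher and 1.92% lower. Pvalb had a log2 fold change of 2.31 ± 0.06 and Casq1 of 0.95 ± 0.05, at adjusted p of 2.74e-29 and 1.86e-18 by edgeR's quasi-likelihood test. Among the 15 contractile genes 5 were called higher and 6 lower, and Actn3, a fast-fibre Z-disc protein, had the largest value, 1.12. Ryr1 had −0.71 ± 0.06, beside −0.87 for Ttn and −0.85 for Neb, the giant filament proteins of the sarcomere. Trdn had −0.50 and Jph1 −0.32 ± 0.08. The calls of Atp2a1 (0.11 ± 0.05, adjusted p = 0.0452) and Atp2a2 (0.15 ± 0.05, adjusted p = 0.0109) by edgeR's quasi-likelihood test were small, and leaving out any GPI library ended both. Atp2a1 also lost its call without any 1 of the Sham libraries, GMTT 1 or GMTT 2.

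In GMTT against Sham on the contractile scale, 4 genes were called higher (Pvalb, Casq1, Atp2a1 and Ryr1), where 0.590% of all genes were. Of the 15 contractile genes themselves, 5 were called higher and 3 lower, from −1.15 (Tcap) to 0.91 (Mybpc2). Only Atp2a2 of the 10 lay outside that range. Pvalb had 0.54 ± 0.06, Casq1 0.47 ± 0.06, Atp2a1 0.44 ± 0.05 and Ryr1 0.35 ± 0.06 on the log2 scale. The genes called lower were Atp2a2 at −1.49 and Casq2 at −0.64 ± 0.10, where 96.5% of all genes were called lower. The other 4 of the 10 were not called, with Trdn at −0.12 ± 0.10 and Jph1 at 0.30 ± 0.15. Without Sham 3 the value for Trdn was −0.25 and passed the threshold, and without GMTT 3 it was −0.22. Jph1 was called at 0.46 without Sham 1 and at 0.34 without GMTT 2, and Cacna1s at 0.18 without GMTT 3. Of the 8 slow-fibre markers, 6 were called lower in GMTT than in Sham on this scale and 0 higher, with a median of −0.63.

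**Figure D2:**
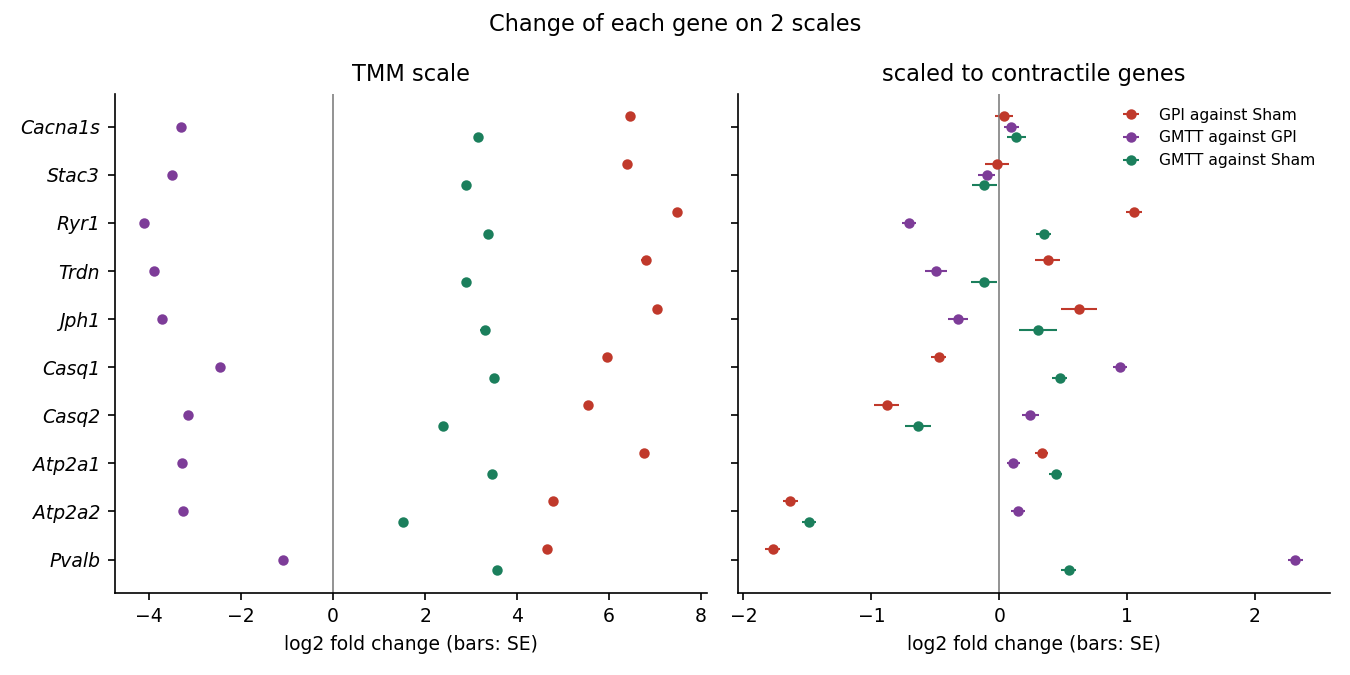
Log2 fold change of each of the 10 genes with its standard error (bars) in the 3 comparisons, on the TMM scale at left and with libraries scaled to 15 contractile genes at right. On the TMM scale every GPI against Sham value is 4.65 or more and every GMTT against GPI value is −1.09 or less; on the contractile scale the values spread on both sides of 0, with Ryr1 and Pvalb at opposite ends of GPI against Sham.

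Ratios of FPKM between pairs of genes within a library do not depend on the scaling between libraries. The value given for a group is the geometric mean of its 3 libraries. Atp2a1 over Atp2a2, the fast-fibre pump over the slow, cardiac and housekeeping pump, was 5.53 in GMTT (range 5.29 to 5.74), 5.68 in GPI (5.54 to 5.77) and 1.46 in Sham (1.40 to 1.54). Sham libraries were thus far below both injured groups, which overlapped each other. Casq1 over Casq2 was 25.3 in GMTT (24.6 to 25.8), 15.6 in GPI (14.9 to 16.4) and 11.8 in Sham (11.0 to 13.2), without overlap. Ryr1 over Cacna1s, the release channel over its voltage sensor, was 1.48 in GMTT (1.46 to 1.53), 2.58 in GPI (2.55 to 2.60) and 1.28 in Sham (1.20 to 1.33). That ratio was highest in GPI and again without overlap between groups. The log2 differences for GPI against Sham were 1.96 for the pumps, 0.40 for the calsequestrins and 1.02 for the channel pair, and for GMTT against GPI they were −0.04, 0.70 and −0.80. For GMTT against Sham the log2 differences were 1.92 for the pumps and 1.11 for the calsequestrins. With 3 libraries against 3 the exact 2-sided permutation test cannot go below p = 0.1, which 8 of the 9 comparisons reached (0.1125 after Benjamini-Hochberg adjustment over 9), and the pumps gave p = 0.5 in GMTT against GPI. How reads that match both members of a pair were counted is not given in the sources used here.

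**Figure D3:**
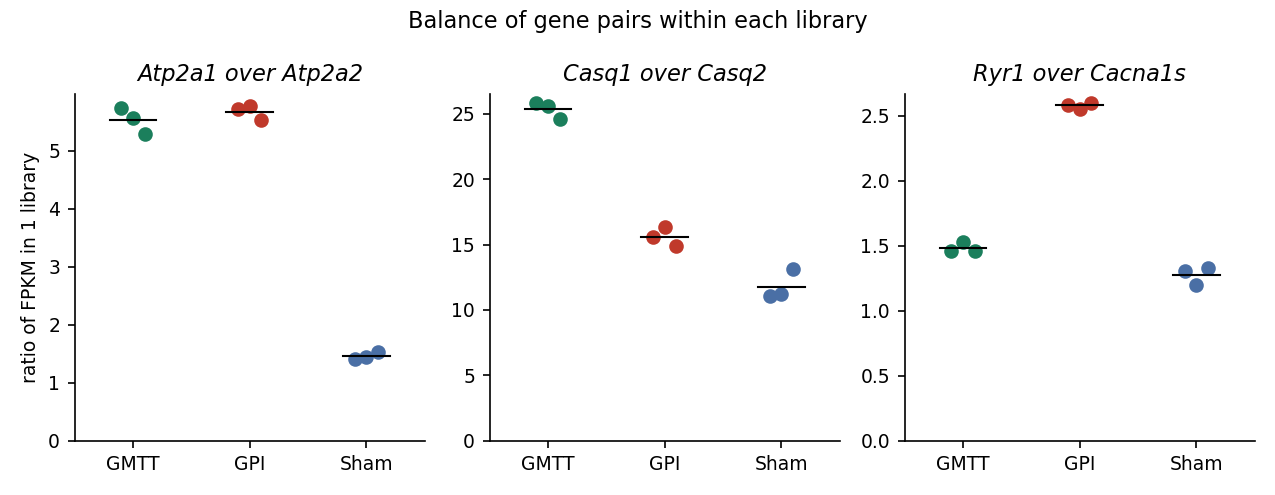
Ratio of FPKM within each library for Atp2a1 over Atp2a2, Casq1 over Casq2 and Ryr1 over Cacna1s, with GMTT, GPI and Sham side by side. Points are libraries (3 per group) and bars are geometric means of each group, on axes from 0. The pump ratio is 5.53 in GMTT, 5.68 in GPI and 1.46 in Sham, the calsequestrin ratio is highest in GMTT and the channel ratio is highest in GPI.

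Of 17 other genes of the triad and its tubule (auxiliary calcium channel subunits, junctional proteins and store proteins), 17 were higher in GPI than in Sham, 17 lower in GMTT than in GPI and 17 higher in GMTT than in Sham on the TMM scale, and also with library sizes alone. Their median log2 fold changes were 5.92, −3.03 and 2.74. Sypl2 (mitsugumin 29, a triad membrane protein) averaged 143 ± 3.87 TMM CPM in GMTT, 1167 ± 27.5 in GPI and 10.3 ± 0.0423 in Sham (SD, n = 3 each). Tmem38a, a potassium channel of the reticulum that balances charge during calcium release, averaged 153 ± 3.55, 1455 ± 48.4 and 17.5 ± 0.715 TMM CPM in GMTT, GPI and Sham. Both were highest in all 3 GPI libraries and lowest in all 3 Sham libraries. Srl (sarcalumenin, a calcium-binding store glycoprotein) had log2 fold changes of 5.92 for GPI against Sham and −2.60 for GMTT against GPI. Hrc, the histidine-rich calcium-binding protein of the store that binds triadin, had 6.70 and −3.58 in these comparisons. Chosen after their values were seen, Cacna2d1, the alpha2-delta subunit of the channel, had the largest log2 fold change of the list for GPI against Sham, 7.62, and Fkbp1a, a binding partner of the release channel that most cells make, the smallest, 2.14. On the contractile scale 4 of the 17 were called higher and 12 lower in GPI against Sham, with a median of −0.50. Fkbp1a was the lowest there, at −4.28. Of the 15 contractile genes 4 were called higher and 5 lower, and of all genes 0.791% and 97.3%. How much of these values came from cells other than muscle fibres was not tested.

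The pumps are held back or helped by small membrane peptides. Of 4 listed, Pln was not matched in the table and is not analysed here, and the other 3 were called higher in GPI than in Sham, lower in GMTT than in GPI and higher in GMTT than in Sham on the TMM scale and with library sizes alone. Sln (sarcolipin, an inhibitor of SERCA) had 22, 26 and 13 counts in the GMTT libraries, against 555, 684 and 523 counts in the GPI libraries and 3, 2 and 4 counts in the Sham libraries. Its log2 fold change was 8.48 ± 0.19 for GPI against Sham, above all 10 genes here, and −5.86 ± 0.14 for GMTT against GPI. For GMTT against Sham it was 2.62 ± 0.44, an estimate that rests on 9 counts in Sham. Mrln (myoregulin, another inhibitor) had log2 fold changes of 5.82 for GPI against Sham and −3.99 for GMTT against GPI, and Strit1 (DWORF, which counters the inhibitors) had 6.25 and −3.54. In Sham these rest on 10, 8 and 8 counts for Mrln and on 5, 14 and 8 counts for Strit1. On the contractile scale Sln was at 2.13 for GPI against Sham and −2.46 for GMTT against GPI, outside the range of the 15 contractile genes in both.

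Of 7 surface and tubule membrane genes that carry the action potential, 7 were higher in GPI than in Sham, lower in GMTT than in GPI and higher in GMTT than in Sham, with medians of 5.99, −3.52 and 2.89, and also with library sizes alone. Scn4a, the sodium channel of skeletal muscle, averaged 20.0 ± 0.617 TMM CPM in GMTT, 344 ± 4.86 in GPI and 1.38 ± 0.0841 in Sham, and its log2 fold change of 7.96 for GPI against Sham was the largest of the 7. Clcn1, the muscle chloride channel that steadies the membrane, had 6.94 for GPI against Sham and −3.72 for GMTT against GPI. Kcnj11, the pore of the ATP-sensitive potassium channel, had 5.86 and −2.97 in these comparisons. Kcnj2, an inward rectifier potassium channel also found outside muscle and named here after its values were seen, had the smallest log2 fold change of the 7 for GPI against Sham, 2.05. On the contractile scale 3 of the 7 were called higher and 4 lower in GPI than in Sham, beside 0.791% and 97.3% of all genes. The values spread between −4.37 for Kcnj2 and 1.54 for Scn4a.

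Calcium genes that most cells use went in both directions, as all genes tested did. Of 11, 5 were called higher and 5 lower in GPI than in Sham, with a median log2 fold change of 0.02. Over all genes 40.1% were called higher and 48.1% lower. In GMTT against GPI 5 of the 11 were called higher and 5 lower, beside 45.7% and 40.2% of all genes. With library sizes alone 2 were higher and 8 lower in GPI than in Sham, beside 22.1% and 70.3% of all genes. In that setting 9 were higher and 2 lower in GMTT than in GPI, beside 72.2% and 18.9%, with 4 of the 11 changing sign in each comparison. Atp2a3, the SERCA pump of blood and other non-muscle cells, averaged 284 ± 18.0 TMM CPM in GMTT, 31.3 ± 2.02 in GPI and 297.5 ± 12.5 in Sham. That is the reverse of its paralogues Atp2a1 and Atp2a2, with a log2 fold change of −3.25 for GPI against Sham and 3.18 for GMTT against GPI. Atp2b4, a plasma membrane calcium pump, had −2.00 and 1.64, and Calr, the calcium-binding chaperone calreticulin, had −1.01 and 1.08. Stim1, a store sensor that muscle also uses, was higher in GPI than in Sham, at 1.57 ± 0.05, and lower in GMTT than in GPI, at −1.37 ± 0.05.

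Paralogues typical of heart, brain or other tissues were scarce. Ryr2, the release channel of heart, had 5, 0 and 3 counts in the GMTT libraries, 6, 12 and 9 in the GPI libraries and 0, 2 and 0 in the Sham libraries, too few to test. Jph4 was at 0 in every library, and the deposited table gives both Jph4 and Ryr3 the biotype pseudogene. Of the 6 of 9 that were tested, 3 were called higher and 3 lower in GPI than in Sham, beside 40.1% and 48.1% of all genes. Ryr3 averaged 1.99 ± 0.268 TMM CPM in GMTT, 14.1 ± 2.49 in GPI and 1.25 ± 0.304 in Sham, and its log2 fold change of 3.48 for GPI against Sham was smaller than that of any of the 10 genes. Cacna1c, the heart and smooth muscle channel, had 1.71 in that comparison, while Stac and Stac2, the paralogues of Stac3, had −1.48 and −1.43, from 16 and 15 counts in all GPI libraries together.

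**Figure D4:**
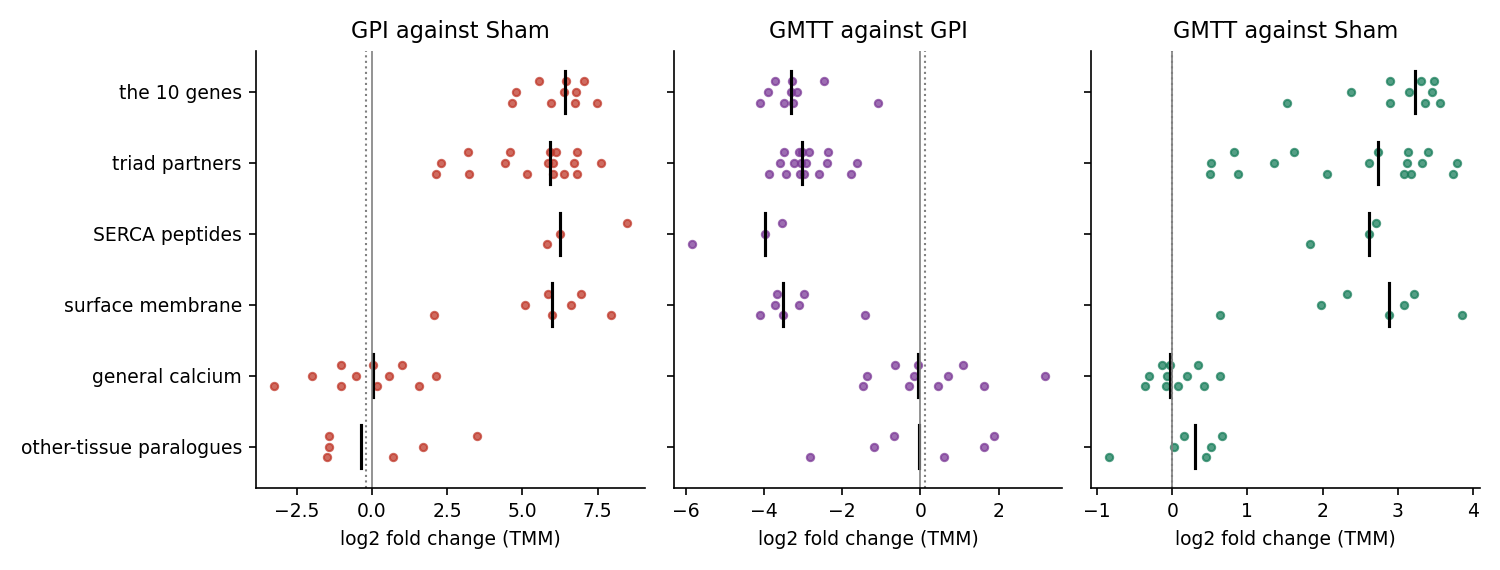
Log2 fold change on the TMM scale of each tested gene in 6 groups of calcium and membrane genes, 1 panel per comparison; points are genes, black bars are medians of a group and the dotted line is the median of all genes. The triad partners, the SERCA peptides and the surface membrane genes lie on the side of the 10 genes in each comparison, while the general calcium genes lie on both sides of 0.

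The genes outside these lists whose profile over the 9 libraries was most like the median profile of the 10 were Plin4, Myom1, Kcnc4, Des and Scn4b. Likeness was the distance between centred log2 TMM CPM profiles. Plin4, a lipid droplet coat protein, was nearest at a distance of 0.168 and averaged 31.75 ± 1.89 TMM CPM in GMTT, 352 ± 9.12 in GPI and 4.03 ± 0.0305 in Sham. Myom1, a protein of the sarcomere's M-band, followed at 0.201, and Kcnc4, a potassium channel, Des, the muscle intermediate filament desmin, and Scn4b, a sodium channel subunit, had 0.271, 0.325 and 0.360. Among the 10 themselves Stac3 at 0.189 and Cacna1s at 0.246 were nearest to the median profile, and Atp2a2 at 2.20 and Pvalb at 3.00 were farthest.

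The contractile-scaled values were also set against gene length, a description made after the values were seen. Ryr1 has the longest model of the 10 (15427 bases in the deposited table) and Pvalb the shortest (1267 bases). Among the reference genes Ttn (113560 bases) and Neb (31319 bases) lay on the side of Ryr1. Short genes lay on both sides of 0. Pvalb had −1.77 in GPI against Sham and 2.31 in GMTT against GPI. Tcap (979 bases) had −0.37 and −0.78 in these comparisons. Sln (298 bases) had 2.13 and −2.46, but is not in the sets below and rests on 9 counts in Sham. Over the 10 genes alone, Spearman's rho between length and the log2 fold change was 0.48 for GPI against Sham, −0.54 for GMTT against GPI and −0.38 for GMTT against Sham, and 0.28, −0.37 and −0.57 without Ryr1. Over the 10 genes and the other muscle genes of the lists, 43 in all, rho was 0.55, −0.29 and 0.33 in the same comparisons, and 0.44, −0.16 and 0.20 without Ryr1, Ttn and Neb. For GMTT against Sham the sign thus differed between the 10 genes and the larger set. These points are genes of the same 9 libraries and not independent of each other. The part of length in these differences was not tested.

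**Figure D5:**
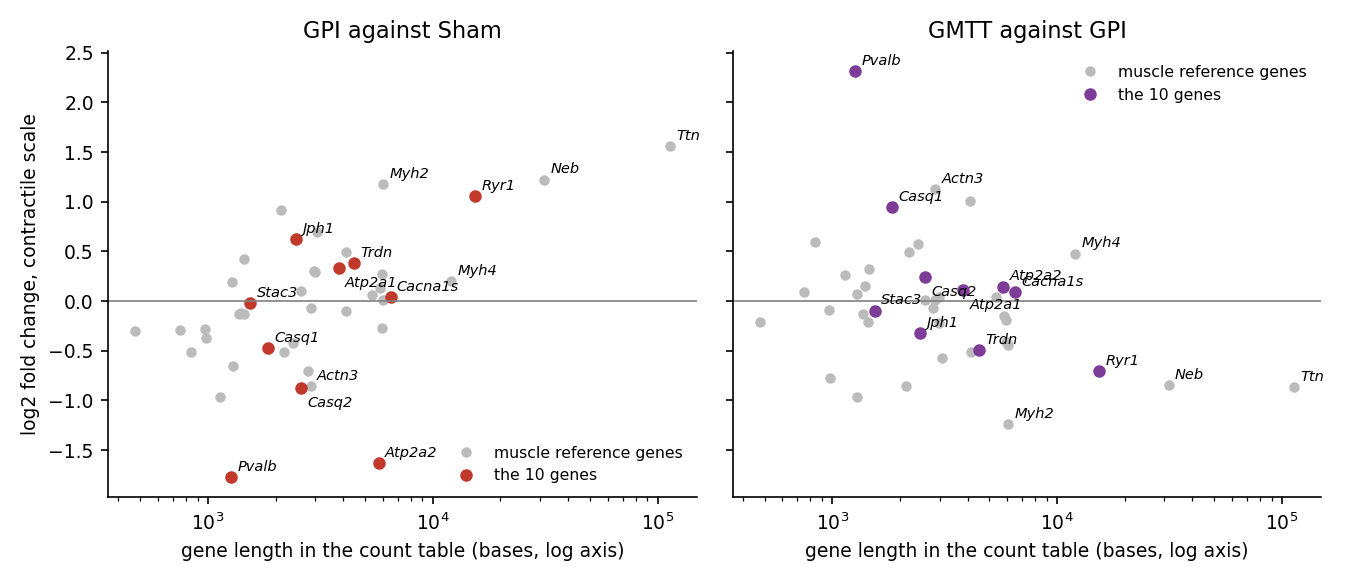
Log2 fold change on the contractile scale against gene length in bases (log axis) for GPI against Sham and GMTT against GPI; coloured points are the 10 genes and grey points other muscle genes of the lists. Ryr1 lies beside Neb and Ttn at the long end in both panels, and Pvalb is the lowest of the 10 at left and the highest at right.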

How the data were processed

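Per the labels' protocols, poly(A) RNA from TRIzol extracts went into dUTP libraries, which keep strand, and was read as paired ends. Per the submitters' processing notes, mRatBN7.2 was the build. Which programs aligned and counted the reads, whether strand was used and how reads with more than 1 match were counted is not given in the sources used here. The authors deposited whole-number counts per gene and, separately, FPKM per gene. A deposited FPKM value was the count divided by the gene's length and by a constant of its library (largest relative deviation 5.1e-15). The constant was 1.29 to 1.30 of the total in GMTT, 0.598 to 0.608 in GPI and 1.31 to 1.32 in Sham, so the deposited FPKM include a scaling of libraries against each other.

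Counts were tested with edgeR 4.0.16 in R 4.3.3 (robust quasi-likelihood F test, 2-sided, TMM, minimum count 10), all 9 libraries in 1 model of 3 groups, with Benjamini-Hochberg adjustment over 15936 genes and a threshold of 0.05. A second fit took the library scale from the median ratio over 15 contractile genes. Replicates differed by more than counting noise (chi-square per degree of freedom 1.94 to 4.88). Alternatives were DESeq2 1.42.0, limma 3.58.1 on log2(FPKM + 1) and log2(FPKM + 0.1), other scalings and filters, a replicate block, and each library left out. Pair ratios were tested by exact permutation (Python 3.11.15, scipy 1.17.1). The test code was tested on simulated data.

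The 10 genes and the lists were chosen with earlier results of these data known. All 10 are named in every comparison; of the other lists, the 4 tested genes with the smallest p in GPI against Sham are named, with any called against the majority of their list and those too low to test, and genes outside that rule are marked. A gene that the rule names is not reported here. The 5 most alike genes needed a mean log2 CPM of at least 3. Shared animals or days behind equal replicate numbers are not given by the labels.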

Additional observations from a re-analysis of the deposited data

How the results depend on the processing

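On the TMM scale, 570 recomputed values of single genes kept their direction and their side of the threshold in 569 cases, under other scalings, filters, tools, fits of 6 libraries and each library left out. The exception was Pvalb in GMTT against GPI, 0.013 with library sizes only. The counts of the 10 genes called never moved by more than 1.5 times in 114 recomputed counts, nor did the counts of all genes called in 57. With libraries scaled to summed contractile counts, 2 genes were called higher in GPI than in Sham in place of 4, 4 were called lower in GMTT than in Sham in place of 2, and Cacna1s in GPI against Sham was −0.22 (adjusted p = 0.00423, edgeR's quasi-likelihood test) in place of 0.04. Scaled to 8 muscle metabolic genes, Cacna1s passed the threshold in GMTT against GPI at 0.24 and Jph1 in GMTT against Sham at 0.31. Each library left out in turn gave 3 to 5 genes called higher in GMTT than in GPI on the contractile scale, with 3 whenever a GPI library was left out. Of 360 recomputed values on that scale, 334 kept direction and side, 14 lost their call, 11 gained one and 1 reversed; the cause was not tested. Of 63 recomputed pair ratios, 63 kept theirs.

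Deviations from group means correlated at −0.146 to 0.061 in 9 pairs of libraries with the same replicate number. In 18 pairs of different numbers they correlated at −0.085 to 0.118. The deviations within a group of 3 cancel out, so these correlations cannot decide whether equal numbers share an animal or a day. With the replicate number as a block, 13960 genes were called in GPI against Sham, 13574 in GMTT against GPI and 8815 in GMTT against Sham, and the 10 genes kept their calls on the TMM scale. On the contractile scale the block ended the call of Atp2a1 in GMTT against GPI (0.11, adjusted p = 0.0783, edgeR's quasi-likelihood test). Depth limits Sln, Mrln and Strit1 in Sham and the scarce paralogues most, and among the 10 genes Jph1 in Sham. Groups of 3 were too small for a test of outlying libraries.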
